A study of Homo sapiens with 6 samples.

Results

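The genes described here mark where a cell stands between an epithelial and a mesenchymal state. They are 10 genes: VIM, CDH1, CDH2, FN1, EPCAM, ZEB1, ZEB2, SNAI1, SNAI2 and TWIST1, taken by symbol from the 60564 gene rows of the count table, and all 10 had a row. RNA-seq was made from A2780, an established human ovarian cancer cell line, in 3 GPT2si libraries and 3 GPT2sinc libraries. The abbreviations si and sinc are not explained in the labels, which call both groups A2780 lines. The series title names a deficiency of GPT2, the mitochondrial alanine aminotransferase. All libraries share the same line and the labels give no time, dose or agent. No source says that replicate libraries are separate cultures; the p-values therefore rest on library-to-library spread that may be only technical.

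Epithelial cells hold each other through E-cadherin (CDH1) and carry EPCAM on their surface. Mesenchymal cells carry N-cadherin (CDH2), build their cytoskeleton from vimentin (VIM) and lay down fibronectin (FN1). The transcription factors ZEB1, ZEB2, SNAI1, SNAI2 and TWIST1 drive the passage from the first state to the second, in part by binding E-boxes in the CDH1 promoter and silencing it. In carcinomas the passage is often partial, and ovarian cancer lines range widely along it.

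Mesenchymal members held the highest levels in both groups, but not all of them were high. Per transcript length, the mesenchymal FN1 lay below the epithelial EPCAM in both groups. VIM was among the most abundant transcripts of the cells, TWIST1 and CDH2 were clearly present, CDH1 lay near the detection floor and ZEB2 had no counts. Of the 8 members that could be tested, 0 passed the edgeR quasi-likelihood test at a Benjamini-Hochberg adjusted p under 0.05 in either direction. Over all 17006 genes tested, 0.576% were higher and 0.841% lower. Before adjustment, at p under 0.05, 1 member was higher (SNAI2) and 1 was lower (ZEB1), where 10.3% and 9.27% of all genes were. DESeq2 and limma-voom also called 0 members (3.88% and 0.388% of all genes higher, 3.11% and 0.635% lower). In all 8 tested members the ranges of the groups overlapped in CPM (counts scaled to library size), whereas 14.9% of all genes lay wholly higher and 13.2% wholly lower in GPT2si libraries. CDH1 and ZEB2 were under the low-count filter.

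**Figure D1:**
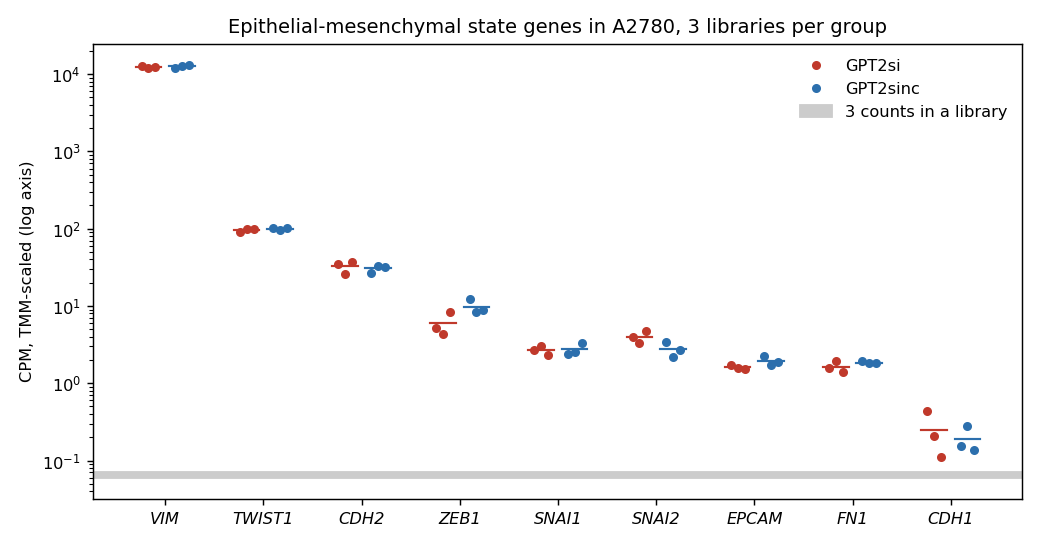
Level of each member with any count, in CPM (counts scaled to library size) on a log axis, with 1 point per library and a bar at the group mean. The grey band is the level that 3 counts give against the raw library total, while the points carry a further scaling for composition. VIM lies between 11890 and 13279 CPM, while CDH1 lies between 0.110 and 0.438 CPM.

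The libraries were of similar depth, 41931162 to 50882329 counts with GPT2si and 43351984 to 45508530 with GPT2sinc. GPT2 itself fell to 4714, 3677 and 4416 counts in GPT2si libraries 1 to 3, against 10807, 10683 and 9516 in GPT2sinc libraries 1 to 3 (log2 fold change −1.26, SE 0.08; edgeR adjusted p = 0.000393). GPT2si 2 and GPT2sinc 1 stood farthest apart among all pairs of libraries, with a chi-square per degree of freedom of 89.4. Müllerian ovarian carcinoma markers were mostly missing: WT1, KRT7 and ESR1 had 0 counts in every library, MUC16 and SOX17 had 3 counts in GPT2sinc 3 alone, and PAX8 had 4 to 16 counts with GPT2si and 5 to 12 with GPT2sinc. FOLR1, a folate receptor of ovarian epithelium, was present at 16.4 CPM with GPT2si and 15.9 CPM with GPT2sinc. MSLN, mesothelin, the other one tested, was at 0.379 ± 0.122 CPM with GPT2si and 0.686 ± 0.158 with GPT2sinc (log2 fold change −0.84, SE 0.37; in edgeR unadjusted p = 0.0455 and adjusted p = 0.245). Summed fibroblast markers (6 of 6 with counts) ran from 393 to 407 CPM with GPT2si and 360.3 to 390.4 with GPT2sinc, of which FAP, a defining one, had 0 counts in all but 1 library. The collagen gene COL1A2 was the highest of these markers, and 2 of the 6 had a mean under 1 CPM. Summed immune markers (5 of 6 with counts) ran from 4.85 to 8.95 CPM with GPT2si and 6.66 to 6.80 with GPT2sinc. Endothelial markers (4 of 5) summed to 0.0994 to 0.334 CPM with GPT2si and 0.0861 to 0.299 with GPT2sinc, CDH5 being at 0. Mesothelial markers (4 of 5) summed to 0.988 to 1.61 CPM with GPT2si and 1.18 to 1.49 with GPT2sinc. Granulosa markers (3 of 5) summed to 23.7 to 32.3 CPM with GPT2si and 20.7 to 23.4 with GPT2sinc. Among the 6 immune markers CD68 was the highest, and 4 had a mean under 1 CPM. Of the 2 immune markers tested, 1 passed edgeR as lower with GPT2si, where 0.841% of all genes did, and 1 had an estimate above 0. DESeq2 also called 1 lower, and limma-voom called 0. CD3E, part of the T cell receptor complex, had 0 counts. Of the 3 granulosa markers tested, 2 had estimates above 0 with GPT2si and 1, INHA, below 0. AMH, a hormone of the gonads, was at 3.73 CPM with GPT2si against 1.35 with GPT2sinc (edgeR adjusted p = 0.0368). It was the 1 that passed, where 0.576% of all genes were higher. FOXL2 was at 21.3 CPM with GPT2si and 18.1 with GPT2sinc, and CYP19A1 and FSHR had 0 counts. The part of these markers in the results on the members was not tested. The labels name A2780 alone, so these sums describe RNA of that line and do not count cells of other types. In bulk RNA, fewer cells of a kind and less RNA per cell cannot be told apart.

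Vimentin, the intermediate filament protein of mesenchymal cells, had the highest level of the 10 members. VIM (ENSG00000026025; chromosome 10, 17228259 to 17237593, plus strand; positions here are GENCODE 29, build GRCh38) had 642570, 463423 and 566477 counts in GPT2si 1 to 3, against 556159, 588554 and 577820 in GPT2sinc 1 to 3. In CPM scaled by TMM factors, which allow for composition, these are 12780, 11890 and 12434 with GPT2si and 12123, 12668 and 13279 with GPT2sinc. The groups overlapped, with GPT2si 1 above GPT2sinc 1 and 2. Means were 12368 ± 449 CPM with GPT2si and 12690 ± 578 with GPT2sinc (SD, n = 3 each). Its log2 fold change was −0.04 (SE 0.08; edgeR adjusted p = 0.840), and its 95% interval ran from −0.23 to 0.15, that is 0.854-fold to 1.11-fold. Leaving out any 1 library gave −0.07 to −0.002. Per length of the longest GENCODE transcript the level was 4639 ± 168 FPKM (here, CPM divided by length in kilobases) with GPT2si and 4760 ± 217 with GPT2sinc. Among 13554 tested protein-coding genes this mean level ranked 4. An antisense gene with exons overlapping those of VIM, VIM-AS1, had 63, 30 and 75 counts with GPT2si and 51, 72 and 71 with GPT2sinc.

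Of the cadherins, CDH2 was present and CDH1 was near the floor. CDH2 (ENSG00000170558; chromosome 18, 27950966 to 28177446, minus strand), the N-cadherin of mesenchymal and neural cells, had 1738, 1018 and 1713 counts in GPT2si 1 to 3 and 1241, 1540 and 1392 in GPT2sinc 1 to 3. At 34.6, 26.1 and 37.6 CPM with GPT2si against 27.1, 33.1 and 32.0 with GPT2sinc, the lowest value was in GPT2si 2, and the GPT2sinc range lay inside that of GPT2si. The log2 fold change was 0.09 (SE 0.15; 95% interval −0.24 to 0.42; edgeR adjusted p = 0.757). It was 0.22 without GPT2si 2 and −0.02 without GPT2si 3, and leaving out any other single library gave 0.01 to 0.15. CDH1 (ENSG00000039068; chromosome 16, 68737225 to 68835548, plus strand), the E-cadherin of epithelial junctions, had 22, 8 and 5 counts with GPT2si and 7, 13 and 6 with GPT2sinc. These counts are above a floor of 3 in each library, which covers counting error only. That floor is 0.0590 to 0.0715 CPM on raw library totals, before TMM scaling. The 22 counts of GPT2si 1 stood above the other libraries. In a fit with no low-count filter its log2 fold change was 0.41 (edgeR adjusted p = 0.768). Per length, CDH2 was at 7.56 ± 1.37 FPKM and CDH1 at 0.0513 ± 0.0345 FPKM with GPT2si, and at 7.09 ± 0.747 and 0.0389 ± 0.0160 FPKM with GPT2sinc.

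FN1 and EPCAM, a mesenchymal and an epithelial member, were both low. FN1 (ENSG00000115414; chromosome 2, 215360440 to 215436172, minus strand), the matrix protein fibronectin, had 79, 75 and 64 counts with GPT2si and 88, 85 and 79 with GPT2sinc. At 1.57, 1.92 and 1.40 CPM with GPT2si against 1.92, 1.83 and 1.82 with GPT2sinc, GPT2si 2 reached the level of the highest GPT2sinc library. FN1 had a log2 fold change of −0.19 (SE 0.20; 95% interval −0.64 to 0.27; edgeR adjusted p = 0.641). It was −0.33 without GPT2si 2, −0.09 without GPT2si 3 and −0.01 with offsets for GC content and transcript length. Per length FN1 stood at 0.178 ± 0.0289 FPKM with GPT2si and 0.202 ± 0.00607 with GPT2sinc, below all other detected members but CDH1. EPCAM (ENSG00000119888; chromosome 2, 47345158 to 47387601, plus strand), the epithelial cell adhesion molecule, had 86, 62 and 70 counts with GPT2si and 103, 79 and 81 with GPT2sinc. It was at 1.71, 1.59 and 1.54 CPM with GPT2si and 2.25, 1.70 and 1.86 CPM with GPT2sinc, and the groups overlapped at GPT2si 1 and GPT2sinc 2. EPCAM had a log2 fold change of −0.26 (SE 0.20; 95% interval −0.71 to 0.19; edgeR adjusted p = 0.494), and of −0.14 without GPT2sinc 1. Per length EPCAM was at 0.935 ± 0.0516 FPKM with GPT2si and 1.12 ± 0.162 with GPT2sinc.

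The ZEB proteins, zinc finger repressors of CDH1, were split, with ZEB1 present and ZEB2 without counts. ZEB1 (ENSG00000148516; chromosome 10, 31318495 to 31529814, plus strand) had 262, 167 and 383 counts in GPT2si 1 to 3 and 565, 383 and 390 in GPT2sinc 1 to 3. In CPM these are 5.21, 4.28 and 8.41 with GPT2si and 12.3, 8.24 and 8.96 with GPT2sinc, means of 5.97 ± 2.16 with GPT2si and 9.84 ± 2.17 with GPT2sinc (SD, n = 3 each). The groups met at GPT2si 3 and GPT2sinc 2, and the extremes were GPT2si 2 and GPT2sinc 1, the libraries that also stood farthest apart over all genes. Its log2 fold change of −0.72 (SE 0.25; 95% interval −1.29 to −0.15) was the largest in size among the 8 tested members. In edgeR its unadjusted p was 0.0184 and its adjusted p was 0.167. With offsets for GC content and transcript length in edgeR it was −0.61 and passed (adjusted p = 0.0461), a fit that called 7.26% of all genes higher and 6.04% lower. Without GPT2si 2 and GPT2sinc 1, a choice made after seeing the data, it was −0.35 (edgeR adjusted p = 0.304), and without GPT2si 3 it was −1.05 (edgeR adjusted p = 0.0518). ZEB1-AS1, an antisense gene with exons overlapping those of ZEB1, had 131, 106 and 111 counts with GPT2si and 161, 169 and 140 with GPT2sinc (log2 fold change −0.42, SE 0.16; edgeR adjusted p = 0.200). This gene was picked by its position, and the strand setting of the counting is not known here, so reads of ZEB1 and ZEB1-AS1 may not be told apart where their exons overlap. ZEB2 (ENSG00000169554; chromosome 2, 144364364 to 144524583, minus strand) had 0 counts in each of the 6 libraries, which allows at most 0.0590 to 0.0715 CPM a library before TMM scaling.

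RefSeq promoters on GRCh38.p14 were matched for 5 of the 10 members: VIM, CDH2, FN1, ZEB1 and ZEB2. In the 250 bases before a start, the E-box letters CAGGTG and CACCTG, which are each other's reverse complement and so cover both strands, were found in 2 of 12 windows of these genes, both of ZEB1, which has 7 windows. Over all RefSeq windows of that kind 17.5% hold either form. The ZEB1 window with both forms is shown beside the window of its paralog ZEB2, which had no counts, and that of VIM, the most abundant member; capitals mark the E-box letters, and each reads 5′ to 3′ on the strand of the gene. The CACCTG of ZEB1 begins 242 bases before the start and the CAGGTG 85 bases before it. A match is only a match of letters, and binding was not measured.
ZEB1 (chr10:31318966-31319215, plus strand): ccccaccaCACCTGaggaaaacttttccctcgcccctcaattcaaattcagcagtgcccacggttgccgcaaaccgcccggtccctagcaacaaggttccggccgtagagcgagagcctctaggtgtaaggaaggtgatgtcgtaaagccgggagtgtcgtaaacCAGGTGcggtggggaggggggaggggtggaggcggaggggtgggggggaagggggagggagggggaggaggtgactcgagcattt
ZEB2 (chr2:144520120-144520369, minus strand): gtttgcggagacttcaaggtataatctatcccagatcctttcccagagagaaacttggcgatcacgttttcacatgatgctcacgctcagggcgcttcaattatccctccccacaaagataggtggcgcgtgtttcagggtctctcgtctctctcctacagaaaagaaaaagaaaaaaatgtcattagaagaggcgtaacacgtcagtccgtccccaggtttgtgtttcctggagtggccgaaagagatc
VIM (chr10:17227991-17228240, plus strand): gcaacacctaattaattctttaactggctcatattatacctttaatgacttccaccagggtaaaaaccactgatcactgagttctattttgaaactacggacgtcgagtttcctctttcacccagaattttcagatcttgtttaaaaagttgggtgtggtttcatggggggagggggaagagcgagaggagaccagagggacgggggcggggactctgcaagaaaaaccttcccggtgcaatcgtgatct

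TWIST1, a basic helix-loop-helix factor of mesoderm and neural crest, was the most abundant of the 5 transcription factors. TWIST1 (ENSG00000122691; chromosome 7, 19020991 to 19117672, minus strand) had 4524, 3860 and 4515 counts with GPT2si and 4681, 4480 and 4442 with GPT2sinc. At 90.0, 99.0 and 99.1 CPM with GPT2si against 102, 96.4 and 102 with GPT2sinc, GPT2si 2 and 3 lay above GPT2sinc 2 and the groups overlapped. TWIST1 had a log2 fold change of −0.06 (SE 0.08; 95% interval −0.24 to 0.12; edgeR adjusted p = 0.715), with −0.02 without GPT2si 1 and −0.10 without GPT2si 2. TWIST1 and VIM have the narrowest intervals of the 8 tested members. Per length it was at 57.6 ± 3.15 FPKM with GPT2si and 60.1 ± 1.95 with GPT2sinc and ranked 1032 among the 13554 protein-coding genes. TWIST2, its paralog, had 0 counts in every library.

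SNAI1, the zinc finger repressor Snail, had 134, 117 and 106 counts with GPT2si and 110, 118 and 146 with GPT2sinc (ENSG00000124216; chromosome 20, 49982999 to 49988886, plus strand). At 2.67, 3.00 and 2.33 CPM with GPT2si against 2.40, 2.54 and 3.36 with GPT2sinc, the groups overlapped throughout. SNAI1 had a log2 fold change of −0.05 (SE 0.20; 95% interval −0.50 to 0.39; edgeR adjusted p = 0.905), and its sign turned without GPT2si 3 (0.04) or GPT2sinc 3 (0.11), while it was −0.16 without GPT2si 2. Per length SNAI1 was at 1.58 ± 0.200 FPKM with GPT2si and 1.64 ± 0.306 with GPT2sinc.

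SNAI2, the related repressor Slug, was the member with the highest fold change. SNAI2 (ENSG00000019549; chromosome 8, 48917604 to 48921740, minus strand) had 198, 130 and 215 counts in GPT2si 1 to 3 and 156, 101 and 117 in GPT2sinc 1 to 3. At 3.94, 3.34 and 4.72 CPM with GPT2si and 3.40, 2.17 and 2.69 with GPT2sinc, the groups overlapped only through GPT2si 2 and GPT2sinc 1. Its log2 fold change was 0.54 (SE 0.21; 95% interval 0.06 to 1.02). In edgeR its unadjusted p was 0.0312 and its adjusted p was 0.210. Without both of those libraries the value was 0.82 and passed (edgeR adjusted p = 0.0289), in a comparison added once the data were known. That fit called 754 genes higher and 825 lower over all genes, where the fit of all libraries called 98 and 143. Per length SNAI2 was at 1.41 ± 0.245 FPKM with GPT2si and 0.974 ± 0.218 with GPT2sinc. ZEB1 and SNAI2, both CDH1 repressors, thus had estimates on opposite sides of 0.

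**Figure D2:**
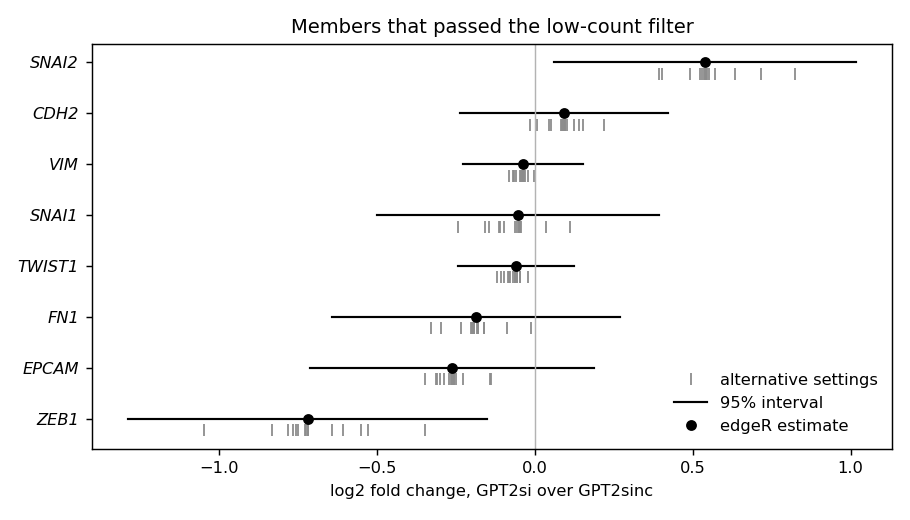
Log2 fold change of GPT2si over GPT2sinc for the 8 members past the low-count filter, with the 95% interval (line) and the values under the alternative settings (grey ticks). The intervals of 6 members cross 0; those of SNAI2 and ZEB1 do not, but neither passed after adjustment over all genes.

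Ordered by level per length with GPT2sinc, the members ran VIM, TWIST1, CDH2, SNAI1, ZEB1, EPCAM, SNAI2, FN1, CDH1 and ZEB2. From SNAI1 to SNAI2 the levels with GPT2sinc were 1.64 ± 0.306, 1.57 ± 0.347, 1.12 ± 0.162 and 0.974 ± 0.218 FPKM, neighbours that differ by less than or about as much as their spread. With GPT2si, SNAI1 (1.58) was followed by SNAI2 (1.41), ZEB1 (0.952 ± 0.345) and EPCAM (0.935). Most like VIM over the 6 libraries, by Pearson's r of log2(CPM + 0.1), were ETFA (0.994), HIGD1A (0.993) and CASP8 (0.981) out of 13554 protein-coding genes. This is a description over 6 points, which share library depth and composition between genes.

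**Figure D3:**
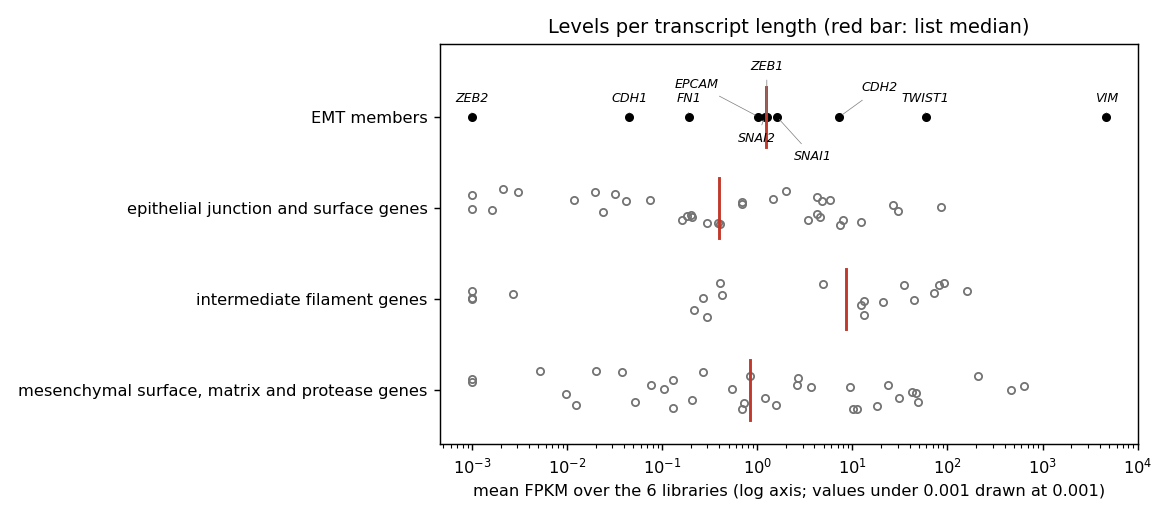
Mean FPKM over the 6 libraries on a log axis for the 10 members and for the genes of 3 lists, with a red bar at each median and values under 0.001 drawn at 0.001. VIM stands at 4699 FPKM and ZEB2 at the left edge; the median of the epithelial junction and surface genes is 0.398 FPKM and that of the mesenchymal genes 0.837 FPKM.

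The remaining genes of the pathway were read from 9 lists. Most tested epithelial junction and surface genes had estimates below 0 with GPT2si. Of 34 genes, 24 were tested, 2 fell and 0 rose, and 18 of the 24 were under 0, with a median of −0.23 where the median of all genes tested was −0.01 and 52.0% were under 0. Before adjustment (p under 0.05) 8 were lower and 0 higher, where 9.27% of all genes were lower and 10.3% higher. DESeq2 called 4 lower and 0 higher, against 3.11% and 3.88% of all genes. In CPM, 10 lay wholly under the GPT2sinc range, as did 13.2% of all genes. TJP3, a scaffold of tight junctions, fell to 10.5, 13.8 and 10.5 CPM in GPT2si 1 to 3, against 21.3, 20.1 and 19.3 in GPT2sinc 1 to 3 (log2 fold change −0.80, SE 0.14; edgeR adjusted p = 0.0298). PRSS8, the membrane protease prostasin, fell to 11.6, 13.1 and 10.6 CPM in GPT2si 1 to 3, against 17.9, 18.7 and 17.3 in GPT2sinc 1 to 3 (−0.62, SE 0.12; edgeR adjusted p = 0.0484). Each GPT2si library lay under each GPT2sinc library for both genes. PKP3, a plakophilin of desmosomes, was at 9.48 ± 0.963 CPM with GPT2si and 14.3 ± 1.08 with GPT2sinc (−0.60, SE 0.13), and the tight junction protein CGN, cingulin, at 55.9 ± 2.52 with GPT2si and 69.5 ± 1.92 CPM with GPT2sinc (−0.32, SE 0.09). These missed the threshold (edgeR adjusted p = 0.0622 and 0.1). Without any 1 library other than GPT2si 2, neither TJP3 nor PRSS8 passed in edgeR (adjusted p = 0.0549 to 0.170 and 0.0787 to 0.219), while their estimates stayed below 0 in these fits. With no low-count filter both missed in edgeR (adjusted p = 0.0758 and 0.110), as did PRSS8 with DESeq2 size factors (adjusted p = 0.0554).

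In these CDH1-poor cells 4 of the 34 epithelial junction and surface genes reached 10 FPKM, while the list median was 0.398 FPKM. JUP, the junction protein plakoglobin, was at 314 ± 39.3 CPM with GPT2si and 279 ± 13.6 with GPT2sinc. The tight junction scaffold gene TJP1 was at 61.7 ± 10.7 with GPT2si and 56.5 ± 4.07 CPM with GPT2sinc. By contrast CLDN3 and ITGB6 had 0 counts in every library, and 11 of the 34 genes were under 0.1 FPKM. Epithelial transcription and splicing regulators were almost silent: 13 of 17 lay under 0.1 FPKM, GRHL2, ELF5, EHF, FOXA2 and CDX2 had 0 counts, and 5 were tested, of which 0 rose or fell (1 higher and 0 lower before adjustment, 0 with DESeq2 and with limma-voom; median −0.09). The 1 was GRHL3, an epidermal grainyhead factor, at 5.56 ± 0.409 CPM with GPT2si and 4.05 ± 0.656 with GPT2sinc (0.46, SE 0.17, edgeR adjusted p = 0.186). Before adjustment 10.3% of all genes tested were higher.

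Intermediate filaments held keratins beside vimentin. KRT8 and KRT18, the keratin couple of simple epithelia, were at 38.4 ± 4.00 and 31.2 ± 4.17 CPM with GPT2si and 31.7 ± 0.690 and 24.7 ± 0.683 CPM with GPT2sinc. Each GPT2si library lay above each GPT2sinc library in both genes, without passing (0.27 and 0.33, SE 0.11 and 0.12, edgeR adjusted p = 0.199 and 0.166). In this list 4 tested genes lay wholly higher and 2 wholly lower with GPT2si, where 14.9% and 13.2% of all genes did. KRT5, KRT7 and KRT14 had 0 counts. The neurofilament gene NEFH was at 346 ± 15.7 CPM with GPT2si and 269 ± 21.0 with GPT2sinc (0.36, SE 0.09; edgeR adjusted p = 0.0743) and the nuclear lamin gene LMNA at 558 ± 92.0 with GPT2si and 457 ± 32.7 with GPT2sinc (0.29, SE 0.12; edgeR adjusted p = 0.223). Without GPT2si 2 the log2 fold changes of KRT8, KRT18 and LMNA were 0.17, 0.22 and 0.14. Of 20 genes 16 were tested, 0 passed in edgeR, and the median was 0.18. Before adjustment 4 were higher and 2 lower, where 10.3% and 9.27% of all genes were. DESeq2 called 1 higher, against 3.88% of all genes, and limma-voom called 0. The median was 0.11 without GPT2si 2 and 0.06 without both GPT2si 2 and GPT2sinc 1.

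Mesenchymal surface, matrix and protease genes included some of the most abundant transcripts of these lists. Of 35 genes 27 were tested and 0 passed in edgeR, with a median of 0.03. Before adjustment 4 were higher and 1 lower, where 10.3% and 9.27% of all genes were. DESeq2 called 2 higher, against 3.88% of all genes, and limma-voom called 0. COL3A1, a fibrillar collagen chain, was at 2587 ± 105 CPM with GPT2si and 2561 ± 65.9 with GPT2sinc. The matricellular gene SPARC was at 871 ± 50.2 with GPT2si and 692 ± 43.7 CPM with GPT2sinc (0.33, SE 0.09; edgeR adjusted p = 0.0866) and the calcium-binding gene S100A4 at 526 ± 65.6 with GPT2si and 432 ± 42.5 CPM with GPT2sinc (0.28, SE 0.11; edgeR adjusted p = 0.205). Without GPT2si 2 the S100A4 value was 0.16. The receptor kinase gene AXL was at 218 ± 6.22 with GPT2si and 242 ± 5.59 CPM with GPT2sinc (−0.15, SE 0.07; edgeR adjusted p = 0.288). CD44 and THBS2 had 0 counts in every library.

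**Figure D4:**
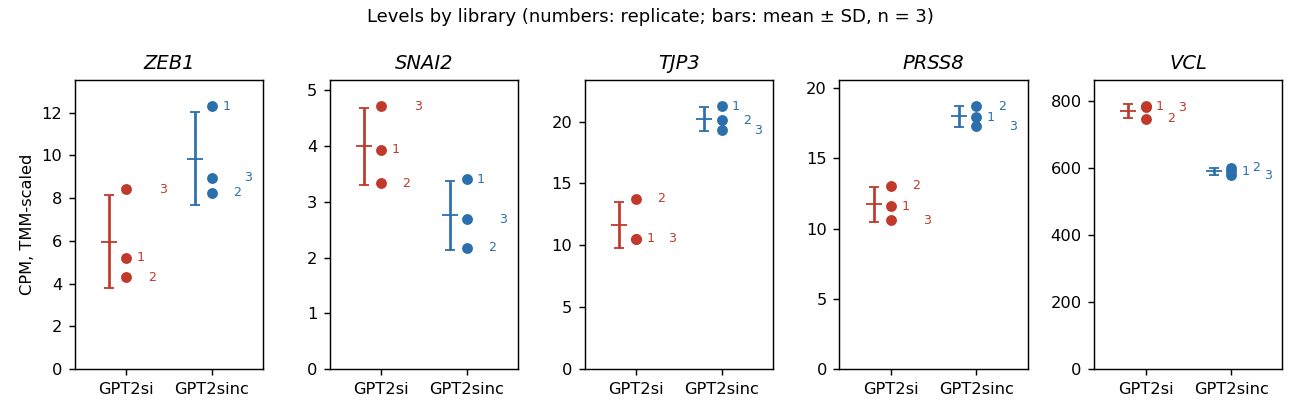
CPM by library for ZEB1, SNAI2 and the list genes TJP3, PRSS8 and VCL, with replicate numbers beside the points and mean ± SD (n = 3) as bars; axes start at 0. The groups overlap for ZEB1 (GPT2si 3 at 8.41 and GPT2sinc 2 at 8.24) and SNAI2, and are apart for TJP3, PRSS8 and VCL.

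In the cadherin-catenin complex VCL, vinculin, which ties junctions and focal adhesions to actin, rose to 786, 748 and 782 CPM in GPT2si 1 to 3, against 591, 602 and 579 in GPT2sinc 1 to 3 (0.39, SE 0.07; edgeR adjusted p = 0.0458). It was 1 of 15 tested among 25 genes, with 0 that fell and a median of 0.01. Before adjustment 4 were higher and 1 lower, where 10.3% and 9.27% of all genes were. DESeq2 called 3 higher and 1 lower, against 3.88% and 3.11% of all genes. Without any 1 library other than GPT2si 2, VCL did not pass in edgeR (adjusted p = 0.0736 to 0.203), nor with DESeq2 size factors (0.0505) or no low-count filter (0.099). The catenins of the cadherin complex had estimates near 0: CTNNB1 at 324 ± 25.5 CPM with GPT2si and 303 ± 20.2 with GPT2sinc, CTNNA1 at 365 ± 16.1 with GPT2si and 368 ± 9.90 with GPT2sinc, and CTNND1 at 239 ± 1.62 with GPT2si and 237 ± 8.23 with GPT2sinc. Their log2 fold changes were 0.10, −0.01 and 0.01. The presenilin gene PSEN2, whose protease cleaves cadherins and EPCAM, had a log2 fold change of 0.50 (SE 0.11), the nectin gene NECTIN1 one of 0.48 (SE 0.13) and the cadherin gene CDH24 one of 0.27 (SE 0.12), with edgeR adjusted p from 0.0592 to 0.251. Without GPT2si 2 the CDH24 value was 0.15.

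The other 4 lists had 0 genes past edgeR. Over all genes tested, 10.3% were higher and 9.27% lower before adjustment, and DESeq2 called 3.88% higher and 3.11% lower. Among other EMT transcription factors and corepressors 24 of 32 were tested (before adjustment, 2 higher and 0 lower; 1 higher with DESeq2, 0 with limma-voom, median 0.04). AJUBA, a LIM protein that binds SNAI1, had a log2 fold change of 0.37 (SE 0.10), the chromatin protein gene HMGA2 one of 0.28 (SE 0.12), SIX2 one of 0.27 (SE 0.12) and TCF7L2 one of 0.19 (SE 0.10), with edgeR adjusted p from 0.0934 to 0.317. SIX2 had 0.12 without GPT2si 2, and HMGA2 had 0.18 without GPT2si 3. Of 28 TGF-beta pathway genes 26 were tested (before adjustment 2 higher and 1 lower, 0 with DESeq2 and limma-voom, median 0.03). The latent TGF-beta binding genes LTBP3 and LTBP1 had log2 fold changes of 0.29 (SE 0.09) and −0.30 (SE 0.12), the ligand gene BMP7 one of 0.25 (SE 0.10) and the ubiquitin ligase gene SMURF1 one of 0.19 (SE 0.09), with edgeR adjusted p from 0.143 to 0.302. Without GPT2si 2 LTBP3 had 0.18 and SMURF1 0.10. Of 22 fibronectin receptor and assembly genes 20 were tested (before adjustment 5 higher and 1 lower, 2 and 1 with DESeq2, 0 with limma-voom, median 0.10). TNS2, a tensin, had a log2 fold change of 0.50 (SE 0.11), the syndecan gene SDC1 one of 0.50 (SE 0.12), the integrin gene ITGB5 one of 0.28 (SE 0.08) and the matrix gene FBLN5 one of 0.46 (SE 0.17), with edgeR adjusted p from 0.0659 to 0.188. Without GPT2si 2 the FBLN5 value was 0.26, and the list median was 0.16 without GPT2si 1 and 0.02 with a filter of 1 CPM in 3 libraries. Of 15 EPCAM partners and cleavage genes 11 were tested (before adjustment 2 higher and 1 lower, 2 higher with DESeq2, 0 with limma-voom, median −0.06). FHL2, a nuclear partner of the cleaved EPCAM tail, had a log2 fold change of 0.37 (SE 0.11), the tetraspanin gene CD9 one of −0.24 (SE 0.13) and the sheddase gene ADAM17 one of −0.18 (SE 0.14), with edgeR adjusted p from 0.116 to 0.498. ADAM17 had −0.28 without GPT2si 1 and −0.05 without GPT2si 2.

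**Figure D5:**
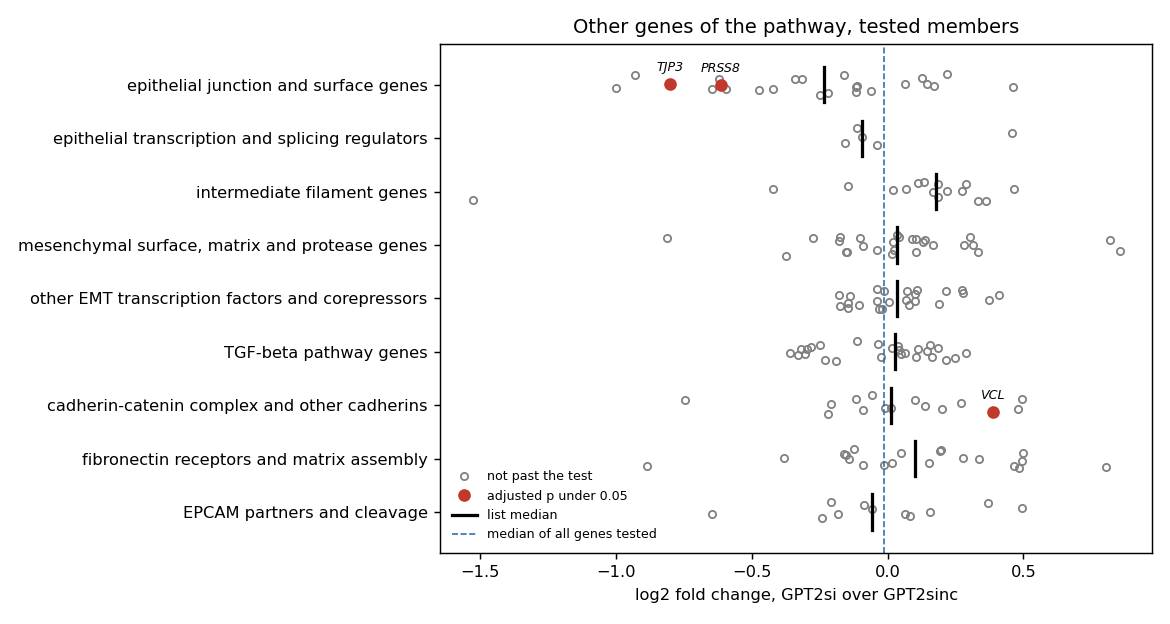
Log2 fold change of GPT2si over GPT2sinc for the tested genes of 9 lists, 1 point per gene, with a black bar at each list median and a dashed line at the median of all genes tested (−0.01). Filled points are the 3 genes past the edgeR test, TJP3 and PRSS8 below 0 and VCL above 0; the list medians run from −0.23 for epithelial junction and surface genes to 0.18 for intermediate filaments.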

How the data were processed

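Per the labels' protocols, poly(A) RNA of A2780 was fragmented and made into PCR-amplified libraries that keep strand. The authors deposited a table of raw whole-number counts, 1 row per Ensembl gene. Per the submitters' processing notes, CASAVA and StringTie were used, in roles that are not stated. Not given in the sources used here are the aligner, counting program, strand setting, build and annotation. Columns were assigned to libraries by the names in the sample descriptions, and groups came from the titles.

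Symbols came from the gene name table (60295 of 60564 rows matched), and positions, gene types and longest-transcript lengths from GENCODE 29 on GRCh38. Groups were compared with edgeR 4.0.16 (R 4.3.3; glmQLFit and glmQLFTest, TMM, filterByExpr, group as the only term), with Benjamini-Hochberg adjustment over 17006 genes and a threshold of 0.05. Standard errors were derived from the F statistic, and 95% intervals from the fit's degrees of freedom. DESeq2 1.42.0 and limma-voom (limma 3.58.1) were among 15 alternatives. The test was also run on counts simulated from the gene-by-gene spread that edgeR fitted. Such counts cannot show how the test behaves with outlying libraries.

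Members and lists were chosen with earlier results of these data known. Of the genes outside the members, those past the test were named and, up to 4 a list, those with the smallest p and a mean of at least 5 CPM; other names were chosen after their values were seen. Some genes of the lists are not reported here. 1 symbol of the lists, FN1P1, was not matched. No libraries were duplicates (chi-square per degree of freedom of at least 7.71 between pairs). No source names molecular identifiers, and reads can be PCR copies of 1 molecule, so floors cover counting error only.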

Additional observations from a re-analysis of the deposited data

How the results depend on the processing

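Members past the test stayed at 0 in both directions under 13 of 15 alternatives. GC and length offsets gave 1 lower (ZEB1), and leaving out GPT2si 2 and GPT2sinc 1 together (chosen after seeing the data) gave 1 higher, SNAI2. Of 120 member values, 3 changed sign: CDH2 (−0.0155, and up to 0.2182 without GPT2si 2) and SNAI1 (0.04) without GPT2si 3, and SNAI1 (0.11) without GPT2sinc 3. Over all genes 98 were higher and 143 lower in edgeR as reported. Higher and lower counts were 61 and 112 with DESeq2 size factors, 17 and 27 with no low-count filter, 570 and 457 with DESeq2, 252 and 306 with the replicate block, 1222 and 1017 with GC and length offsets, 754 and 825 without that library couple, and 66 higher with limma-voom. Leaving out 1 library gave 0 to 377 higher and 1 to 459 lower. Of the 164 list genes tested in edgeR as reported, 1 was higher and 2 lower, where 0.576% and 0.841% of all genes were. With DESeq2 size factors these counts were 0 and 1, and with no filter 0 and 0. DESeq2 gave 10 and 6 (3.88% and 3.11% of all genes), and GC and length offsets 17 and 10 (7.26% and 6.04% of all genes). The replicate block gave 3 and 4, leaving out that couple 16 and 8, and leaving out 1 library 0 to 8 and 0 to 4. The epithelial junction median lay between −0.32 and −0.16 under all 15 alternatives, the intermediate filament median between 0.06 and 0.23 and the fibronectin receptor median between 0.02 and 0.16. No label says that equal replicate numbers pair the libraries, and their deviations correlated at 0.09, 0.11 and −0.19. With the replicate block VCL missed (adjusted p = 0.0594, edgeR). PKP3 passed as lower, and PSEN2, TNS2 and SDC1 as higher (edgeR adjusted p = 0.0274 to 0.046). TJP3 and PRSS8 still passed as lower, and so did 1 gene of the fibronectin receptor list. Why values moved was not tested. Depth limits CDH1, with 5 to 22 counts a library, and ZEB2, with 0, which could not be tested.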

Other observations

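An antisense gene whose exons overlap those of VIM, AL133415.1 (ENSG00000234961), was present in 1 library of each group. It had 0, 98 and 0 counts in GPT2si 1 to 3 and 0, 126 and 0 counts in GPT2sinc 1 to 3, so that both libraries numbered 2 had counts and the other 4 had none. AC003986.2 (ENSG00000232821), antisense to TWIST1 with overlapping exons, had 0, 0 and 7 counts with GPT2si and 14, 20 and 15 with GPT2sinc (log2 fold change −2.73, SE 0.88; edgeR adjusted p = 0.138). The overlaps come from GENCODE 29, and both genes were chosen after their values were seen.

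Several low epithelial and adhesion genes outside the rule for named genes also lay apart between groups, without passing in edgeR. They were chosen after their values were seen. Over all genes tested, 14.9% lay wholly higher and 13.2% wholly lower with GPT2si. CRB3, a polarity protein of the apical membrane, was at 0.672 ± 0.171 CPM with GPT2si and 1.35 ± 0.283 with GPT2sinc (95% interval of the log2 fold change −1.66 to −0.34; adjusted p = 0.118, edgeR). The claudin genes CLDN6 and CLDN7 were at 0.835 ± 0.202 and 2.17 ± 0.366 CPM with GPT2si and 1.59 ± 0.438 and 3.41 ± 0.404 CPM with GPT2sinc. The integrin gene ITGB3 was at 1.66 ± 0.148 CPM with GPT2si and 3.07 ± 0.459 with GPT2sinc (−0.89, SE 0.19; adjusted p = 0.0599, edgeR). In the other direction the protease gene MMP3 was at 3.17 ± 0.410 CPM with GPT2si and 1.75 ± 0.472 with GPT2sinc (0.86, SE 0.23; adjusted p = 0.0979, edgeR), and the matrix gene THBS1 at 2.07 ± 0.389 with GPT2si and 1.17 ± 0.200 CPM with GPT2sinc (0.82, SE 0.24; adjusted p = 0.115, edgeR).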
